A study of Mus musculus with 11 samples.

Results

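The genes described here encode small secreted carrier proteins and larger BPI-fold proteins, several of which glands of the nose release into the mucus. They were taken from the raw count table as all symbols that start with Bpif, Obp, Lcn or Mup followed by a letter or a digit, pseudogenes excluded. This gave 47 of 24421 entries, made up of 14 Bpif, 3 Obp, 10 Lcn and 20 Mup genes.

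RNA-seq libraries had been made from whole main olfactory epithelium (MOE) of mice in which the receptor genes Taar2 to Taar9 were deleted on both chromosomes (homozygous, n = 4), on 1 chromosome (heterozygous, n = 4) or on neither (wild type, n = 3). All libraries are labelled C57BL/6 and postnatal day 1 to 2, whereas the reporting summary of the study names an older age and a C57BL/6J and 129 mixture. The deletion is carried in the germ line and is therefore present in every cell of the animal, and the labels give neither the sex, the litter nor the number of animals behind a library. P-values measure the spread between these libraries, which may be technical in part.

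Lipocalins such as the odorant-binding proteins (Obp) and the major urinary proteins (Mup) fold into a small barrel that holds hydrophobic ligands, among them odorants and pheromones. BPI-fold proteins (Bpif) share a lipid-binding fold with the bactericidal permeability-increasing protein and are abundant in the fluid that lines the airways. In the nose these proteins come from Bowman's glands, from the lateral nasal gland and other submucosal glands, and from secretory cells of the respiratory epithelium. RNA from whole tissue cannot tell fewer gland cells from less RNA per gland cell.

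The targeted genes and the tissue were checked first. The summed counts of 14 olfactory Taar genes were 87 to 119 in WT, 31 to 96 in heterozygous and 1 to 3 in homozygous libraries, and total counts per library were 9239866 to 14632525. On the leading principal component, which carried 41.6% of the variance, WT 1 and 2, heterozygous 3 and 4 and homozygous 1 and 2 (6 libraries) separated from the other 5. All 3 WT libraries, heterozygous replicate 3 and homozygous replicate 1 held Xist and almost no Y-linked counts, and the other 6 libraries the reverse, so that sex and genotype overlap in the comparisons with WT. Markers of mature sensory neurons (Omp, Gnal, Cnga2) and of Bowman's glands (Sox9, Sox10, Aqp5) were present in all libraries, and those of hepatocytes were near 0, with at most 2 counts of Alb, 5 of Apoa1 and 10 of Ttr in a library.

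Most members sit in 3 gene clusters of the GRCm38 (mm10) assembly, as placed by the GENCODE annotation. All 20 Mup genes lie on chromosome 4. Of the others, 25 lie on chromosome 2, Bpifc is on chromosome 10 and Obp1a is on chromosome X. Obp2a (chr2:25700043-25703326), Obp2b (chr2:25737009-25740097) and Lcn11 (chr2:25777017-25780279) lie in this order on the plus strand, with Lcn3 between Obp2b and Lcn11, and Bpifb9a (chr2:154257854-154271245) and Bpifb9b (chr2:154307227-154320646) are neighbours in the Bpif cluster. Obp1a (chrX:78085505-78091374) and Mup5 (chr4:61831319-61835233) are on the minus strand.

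The 120 bases before the transcription start are shown for 9 members, since several of these genes rose and fell together between libraries. They are the RefSeq promoter sequences (GRCm38.p6), read 5′ to 3′ on the strand of the gene and ended before the earlier of the RefSeq and GENCODE starts. Capitals mark the TATA box letters TATAAA. The first 5 genes shared their 3 highest libraries, the next 2 followed them in part, and Bpifa1 and Bpifb6 followed another order.
Obp1a (chrX:78091375-78091494, minus strand): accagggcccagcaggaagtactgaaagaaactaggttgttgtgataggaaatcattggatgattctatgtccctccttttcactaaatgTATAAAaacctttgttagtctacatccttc
Obp2a (chr2:25699923-25700042, plus strand): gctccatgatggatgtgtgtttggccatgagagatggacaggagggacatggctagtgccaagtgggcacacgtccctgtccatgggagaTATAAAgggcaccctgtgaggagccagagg
Obp2b (chr2:25736887-25737006, plus strand): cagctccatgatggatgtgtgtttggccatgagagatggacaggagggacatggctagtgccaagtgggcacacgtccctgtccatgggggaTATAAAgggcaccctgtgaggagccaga
Bpifb9b (chr2:154307107-154307226, plus strand): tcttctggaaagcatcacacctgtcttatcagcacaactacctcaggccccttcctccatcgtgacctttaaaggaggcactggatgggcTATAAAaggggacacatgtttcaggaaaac
Bpifb9a (chr2:154257734-154257853, plus strand): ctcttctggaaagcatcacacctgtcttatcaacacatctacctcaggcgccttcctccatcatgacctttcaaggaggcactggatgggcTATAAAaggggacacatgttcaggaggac
Lcn11 (chr2:25776897-25777016, plus strand): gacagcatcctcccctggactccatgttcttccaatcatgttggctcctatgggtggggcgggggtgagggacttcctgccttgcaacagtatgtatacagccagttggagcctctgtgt
Bpifb5 (chr2:154223622-154223741, plus strand): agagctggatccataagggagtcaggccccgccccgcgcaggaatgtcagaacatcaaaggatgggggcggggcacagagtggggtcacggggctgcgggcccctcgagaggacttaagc
Bpifa1 (chr2:154142760-154142879, plus strand): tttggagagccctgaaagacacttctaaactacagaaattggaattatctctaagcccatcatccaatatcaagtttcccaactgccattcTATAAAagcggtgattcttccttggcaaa
Bpifb6 (chr2:153900268-153900387, plus strand): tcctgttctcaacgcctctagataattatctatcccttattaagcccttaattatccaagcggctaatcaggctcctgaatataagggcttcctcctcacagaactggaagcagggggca

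The TATAAA letters began 28 to 30 bases before the end of the printed stretch in 6 of these 9 genes. The printed stretches of Obp2a and Obp2b were identical at 99.2% of 118 aligned bases, and those of Bpifb9a and Bpifb9b at 94.1% of 119. Searched on both strands over the 250 bases before the RefSeq start, TATAAA was found in 12.4% of 32851 mouse promoters. It was found in 11 of 40 members with a promoter in the table.

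Transcript identity decides how far a count can be assigned to 1 member. Bpifb9a and Bpifb9b were identical at 99.3% of 2065 aligned transcript bases, and only 28.6% of the 50-base stretches of either occurred in no other gene, so that the split of reads between this pair is uncertain. Obp2a and Obp2b differed more, with 73.5% identity over 713 bases and 88.3% and 88.1% of their stretches unique. Mup4 and Mup5 were identical at 92.8% of 919 bases, and 87.6% and 82.9% of their stretches were unique. The share was 92.8% for Obp1a and 100% for Lcn11, Lcn2 and the Bpif genes outside the Bpifb9 pair.

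Of the 47 members, 5 were among the 10 most abundant transcripts of the MOE per kilobase, while most others were low or at 0. Levels are given as CPM, counts scaled to an equal library total with TMM factors (edgeR), and are divided by the exonic length in kilobases where genes are compared with each other. By mean level per kilobase over the 11 libraries, Bpifb9b, the mouse relative of vomeromodulin, ranked 1 of 23350 genes with 5327 CPM per kilobase. Bpifa1, a lipid-binding protein of the airway surface also known as SPLUNC1, ranked 2 with 2691, and Bpifb5 ranked 3 with 1887. Lcn11 ranked 5 with 1373, Bpifb9a 10 with 908, Obp2a 38 with 361 and Bpifb4 67 with 242 CPM per kilobase. Below them came Lcn2 at rank 964 with 43.6 and Obp1a at rank 1977 with 27.0.

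Neighbours in this order often changed places between libraries. Bpifb9b exceeded Bpifa1 per kilobase in 8 of 11 libraries, Lcn11 exceeded Bpifb9a in 6, Obp2a exceeded Bpifb4 in 4 and Obp1a exceeded Bpifb3 in 3. Bpifb9a exceeded Obp2a in all 11, and so did Bpifb4 exceed Bpifb6, the next gene in the order, which is named after its values were seen.

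Of the 47 members, 29 had a count in any library and 14 had one in each of the 11. The filter on low counts left 16, which were tested (8 Bpif, 3 Obp, 3 Lcn and 2 Mup genes). The 13 members with counts that were not tested stayed at or below 0.948 CPM in every library. Among these, Lcn3 reached 0.654 CPM and Lcn8 0.161 CPM, and Mup3 and Mup8 summed to 2 counts and 1 count over all libraries. Mup6 had 8 counts in all, which fell in WT replicates 1 and 2 and heterozygous replicate 4 (2, 3 and 3 counts).

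The 18 members listed at 0 in all libraries were Lcn5, Lcn9 and Lcn10, which are known from the epididymis, and Mup1, Mup2, Mup7, Mup9, Mup10, Mup11, Mup12, Mup13, Mup14, Mup15, Mup16, Mup17, Mup19, Mup20 and Mup21. The 15 Mup genes of this group include the near-identical central copies of the cluster. A median of 9.34% of their 50-base stretches (0 to 80.7%) were unique, so that a 0 can also stand for reads that matched several copies, depending on how the authors counted such reads, which is not stated.

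**Figure D1:**
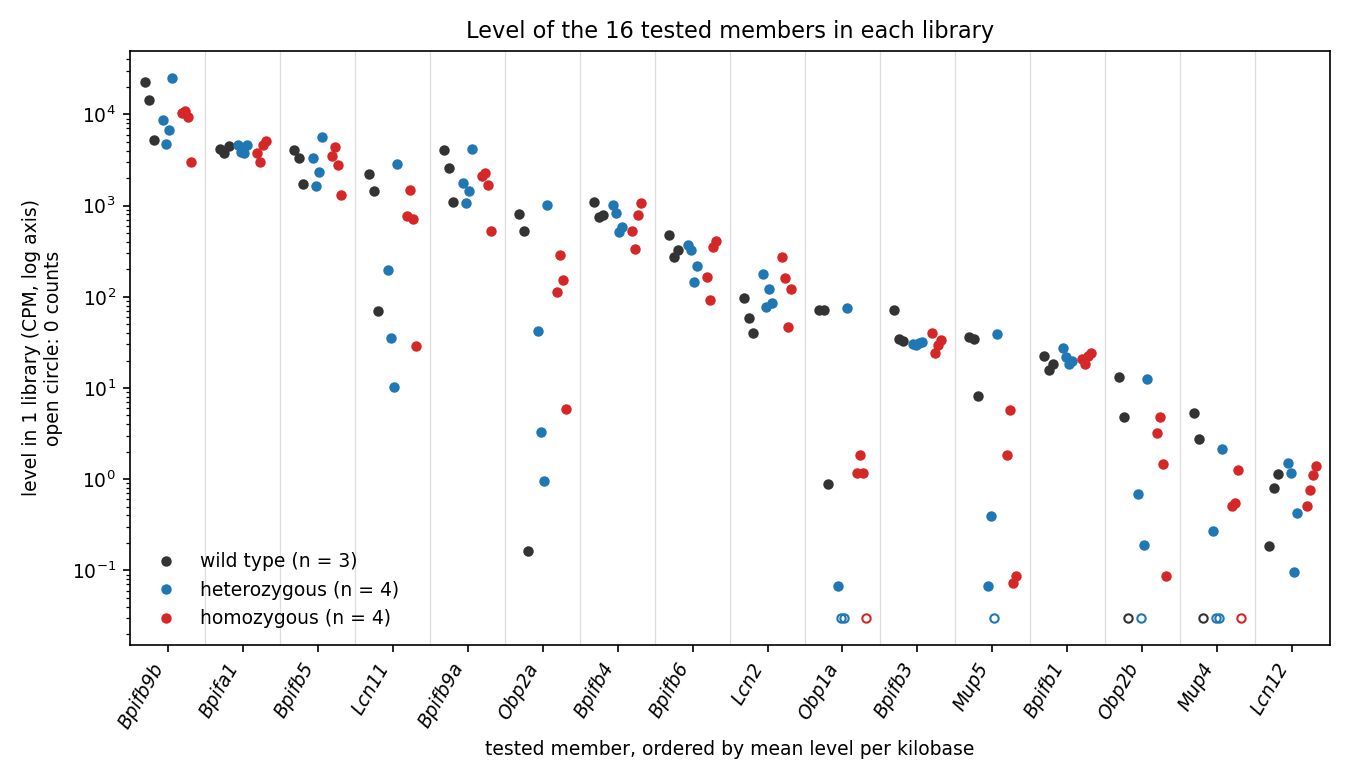
Level of each tested member in each library, in CPM on a log axis, with 1 point per library, coloured by genotype (3 wild type, 4 heterozygous and 4 homozygous libraries) and with open circles at the bottom for libraries with 0 counts. Bpifa1 stayed between 2983 and 5103 CPM in all libraries, whereas Obp1a fell into 3 libraries at 71.5 to 76.1 CPM and 8 libraries at or below 1.85 CPM.

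Together the 4 families took 1.17% (homozygous replicate 4) to 4.51% (heterozygous replicate 4) of all counts of a library, with a median of 2.05%. Almost all of this was Bpif, at 1.15% to 4.10%. The Lcn share was 0.0116% to 0.297%, the Obp share 0.000109% to 0.112% and the Mup share 0 to 0.00433%. With 95% Wilson intervals, which cover counting error only, the Obp share was 0.0921% (0.0903 to 0.0940) in WT replicate 1 and 0.000109% (6.39e-05 to 0.000187) in WT replicate 3.

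**Figure D2:**
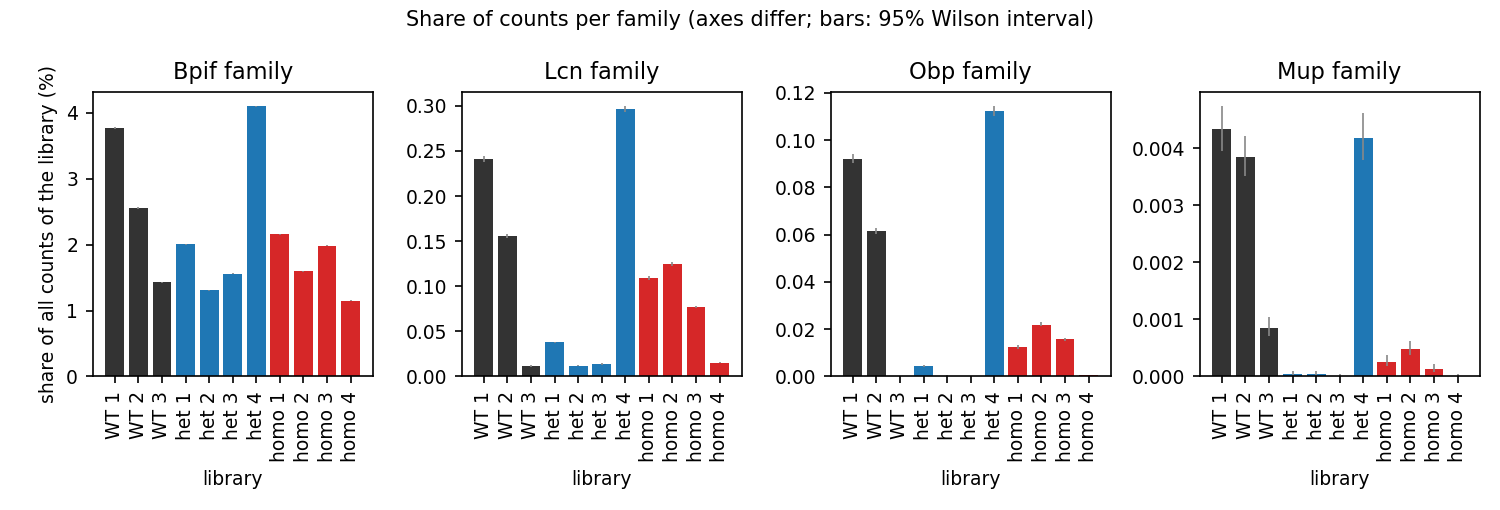
Share of all counts of each library (%) taken by the Bpif, Lcn, Obp and Mup genes, with 1 bar per library, black for wild type, blue for heterozygous and red for homozygous, thin lines for the 95% Wilson interval and a separate axis for each family. In the Obp and Mup families WT 1, WT 2 and het 4 stand above the other 8 libraries.

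The odorant-binding protein Obp1a fell into a high and a low group of libraries. Its level was 71.9, 71.5 and 0.888 CPM in WT replicates 1 to 3. It was 0.0680, 0, 0 and 76.1 CPM in heterozygous replicates 1 to 4, and 1.18, 1.85, 1.17 and 0 CPM in homozygous replicates 1 to 4. WT replicates 1 and 2 and heterozygous replicate 4 thus stood 38.6-fold or more above every other library, and no homozygous library was among them.

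Obp2a, the more abundant odorant-binding protein of the chromosome 2 cluster, had the widest fold range of all members when a floor of 3 counts was set. For members at or below that floor in a library, Obp1a among them, such a range is a lower limit only. It was at 807, 527 and 0.161 CPM in WT replicates 1 to 3, which in WT replicate 3 rests on 2 counts. In heterozygous replicates 1 to 4 it was at 42.4, 3.29, 0.948 and 1023 CPM, and in homozygous replicates 1 to 4 at 114, 284, 151 and 5.94 CPM. The same 3 libraries were highest as for Obp1a, and 3 of the 4 homozygous libraries took a middle position. Set against 3 counts in the lowest library, the highest library was at least 4228-fold higher. Obp2b followed Obp2a at a far lower level (0 to 13.3 CPM), and the ratio of Obp2a to Obp2b counts was 35.6 to 109 in the 6 libraries with at least 20 counts of both.

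Lcn11, a lipocalin of the same cluster as the Obp2 genes, also varied widely, by 281-fold between its highest and lowest library. Its level was 2235, 1462 and 70.2 CPM in WT replicates 1 to 3, 195, 35.5, 10.1 and 2848 CPM in heterozygous replicates 1 to 4, and 763, 1491, 710 and 28.7 CPM in homozygous replicates 1 to 4. Its lowest library was heterozygous replicate 3, and homozygous replicate 2 was slightly above WT replicate 2. That order rests on the TMM factor of homozygous replicate 2, which was 0.756 against 1.006 to 1.055 in the other libraries. As a share of all counts of the library, Lcn11 was at 0.113% in homozygous replicate 2 and at 0.149% in WT replicate 2.

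The major urinary proteins Mup5 and Mup4, known from glands of the head besides the liver-type forms, were the only Mup genes that could be tested. Mup5 was at 36.4, 34.8 and 8.23 CPM in WT replicates 1 to 3. It was at 0.0680, 0.392, 0 and 39.0 CPM in heterozygous replicates 1 to 4 and at 1.85, 5.78, 0.0734 and 0.0861 CPM in homozygous replicates 1 to 4. Every WT library was above every homozygous library, and heterozygous replicate 4 was the highest of all. Mup4 reached 5.37 CPM in WT replicate 1 and had 0 counts in 4 libraries, of all 3 genotypes.

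The Bpifb9 pair had the same 3 highest libraries as Obp1a but varied over a smaller fold range. Bpifb9b was at 22591, 14341 and 5192 CPM in WT replicates 1 to 3, at 8760, 4753, 6676 and 25189 CPM in heterozygous replicates 1 to 4, and at 10331, 10999, 9302 and 2979 CPM in homozygous replicates 1 to 4. Heterozygous replicate 4 and WT replicates 1 and 2 were again highest, 8.46-fold separating the highest from the lowest library. Bpifb9a took the same order of its 3 highest libraries, and the ratio of Bpifb9b to Bpifb9a counts was 4.46 to 6.09, a ratio that depends on how shared reads were assigned. Bpifb5 was highest in heterozygous replicate 4 and homozygous replicate 2 (5667 and 4401 CPM) and lowest in homozygous replicate 4 (1301 CPM). The place of homozygous replicate 2 again rests on its TMM factor. By share of all counts, heterozygous replicate 4 (0.573%) was followed by WT replicate 1 (0.418%), and homozygous replicate 2 was at 0.333%.

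In all, 7 of the 16 tested members (Obp1a, Obp2a, Obp2b, Mup4, Mup5, Bpifb9a and Bpifb9b) had WT replicates 1 and 2 and heterozygous replicate 4 as their 3 highest libraries. This set of libraries was chosen after the values were seen, and 3.78% of all tested genes (626 of 16574) had it. Both counts use CPM with TMM factors, and by share of all counts Lcn11 had this set too. The members' variation within genotypes was wide: the median SD on the log2 scale was 0.934 for the tested members and 0.313 for all tested genes, and 10 of the 16 were among the 1000 most variable genes by this measure, 6 of them among the top 100. Of these 3 libraries, heterozygous replicate 4 held Y-linked and the others Xist counts. All 3 lay on the same side of the leading principal component, as did heterozygous replicate 3 and homozygous replicates 1 and 2.

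Among the 7 members that shared those libraries, 6 had a promoter in the table, and all 6 held TATAAA within 250 bases before the start. Of the other 9 tested members with a promoter, only Bpifa1 held it. The SOX-type letters ACAANG, present in 36.3% of all promoters, were found in 6 of the 6 and in 1 of the 9, and the forkhead-type letters TGTTTNC, present in 17.8%, in 3 and 1. The E-box CATATG, present in 3.46% of promoters, was found in Bpifb9a and Bpifb9b alone among the tested members. The letters ACANNNTGT of a steroid receptor site, present in 5.84%, were found in 0 of the 6 and 3 of the 9. Over all 40 members with a promoter, untested ones included, ACAANG was found in 24, TGTTTNC in 17, CATATG in 4 and ACANNNTGT in 6. Both strands were searched, a stretch that matches ACAANG can overlap one that matches TGTTTNC or ACANNNTGT, and Obp2a with Obp2b and Bpifb9a with Bpifb9b are near copies and not separate cases.

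Another group of Bpif genes did not have the 3 shared libraries as their highest. Bpifa1 was the steadiest abundant member, at 4173, 3774 and 4530 CPM in WT replicates 1 to 3, at 4619, 3829, 3744 and 4660 CPM in heterozygous replicates 1 to 4 and at 3738, 2983, 4587 and 5103 CPM in homozygous replicates 1 to 4. The 3 genotypes overlapped fully. Bpifb4 was highest in WT replicate 1, homozygous replicate 4 and heterozygous replicate 1 (1104, 1068 and 1024 CPM) and lowest in homozygous replicate 2 (334 CPM). Bpifb6 and Bpifb1, named after their values were seen, had the same 3 highest libraries as Bpifb4, and the ratio of Bpifb4 to Bpifb6 counts was 2.27 to 3.62. Homozygous replicate 4 was thus among the highest libraries for these 3 genes and the lowest for Bpifb9b, Bpifb9a and Bpifb5.

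Lcn2, the neutrophil gelatinase-associated lipocalin that binds bacterial siderophores, had an order of its own. It was at 97.9, 57.8 and 39.6 CPM in WT replicates 1 to 3, at 178, 78.1, 122 and 86.2 CPM in heterozygous replicates 1 to 4 and at 272, 160, 46.5 and 120 CPM in homozygous replicates 1 to 4. Its highest libraries were homozygous replicate 1 and heterozygous replicate 1, and the lowest was WT replicate 3. Lcn12 remained at 0.0948 to 1.5 CPM.

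**Figure D3:**
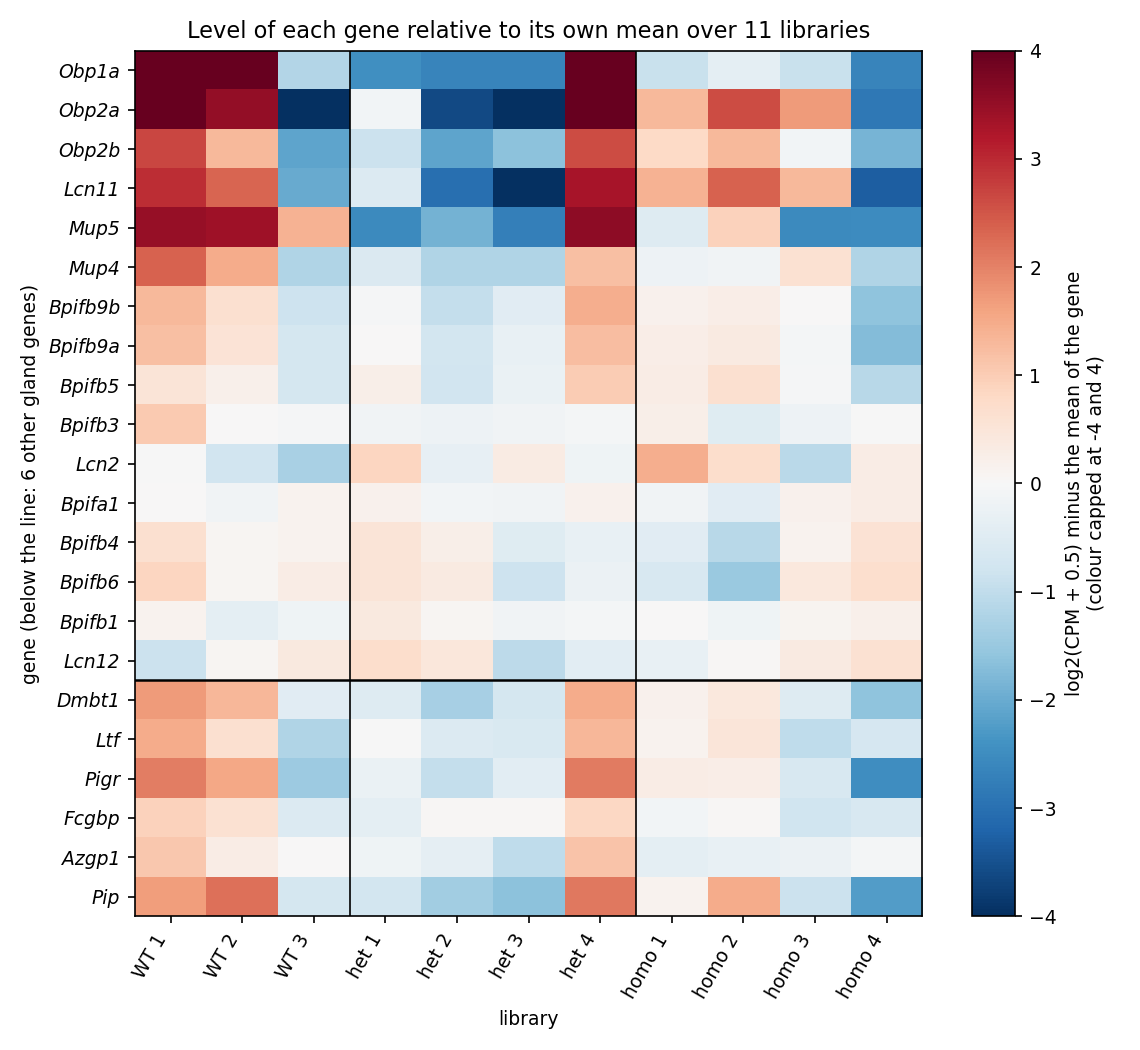
Level of the 16 tested members and, below the line, of 6 other gland genes in each library, as log2(CPM + 0.5) minus the mean of that gene over the 11 libraries, red for above and blue for below, with the colour capped at -4 and 4. Obp, Mup and Bpifb9 genes are red in WT 1, WT 2 and het 4, as are the 6 gland genes, while Bpifb4 and Bpifb6 are below their mean in het 4.

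The deletion of both copies of the Taar cluster was compared with WT to see which secretory genes differed with it. Members were read against all genes tested, with edgeR's quasi-likelihood test and Benjamini-Hochberg adjustment over 16574 genes. The adjusted p-value was under 0.05 for 0 of 16 members and for 0% of all tested genes, and the lowest adjusted p-value of a member was 0.996. Before adjustment 3 of 16 members had a p-value under 0.05, against 3.02% of all tested genes. DESeq2, which tested more genes, gave 0 members after adjustment and 1 (Lcn2) before it, and gave no p-value for Obp1a and Mup5. Over all genes DESeq2 called 8 of 21582 after adjustment and had 633 under 0.05 before it.

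Obp1a had a mean of 1.05 ± 0.770 CPM (SD, n = 4) in homozygous and 48.1 ± 40.9 CPM (SD, n = 3) in WT libraries. Its log2 fold change was -5.53 with a standard error of 2.09 (edgeR unadjusted p = 0.0214, adjusted p = 0.996). WT replicate 3 was within the range of the homozygous libraries. Mup5 was at 1.95 ± 2.69 CPM (SD, n = 4) against 26.5 ± 15.8 CPM (SD, n = 3), a log2 fold change of -3.84 with a standard error of 1.70 (edgeR unadjusted p = 0.0441, adjusted p = 0.996). It was the 1 member of 16 whose libraries did not overlap between the genotypes, against 4.99% of all tested genes. The two-sided exact permutation test of its log2(CPM + 0.5) gave p = 0.0571, the smallest that 3 against 4 libraries allow. With 1 library left out the fold change was -5.32 to -3.40, and the unadjusted p-value was above 0.05 without WT replicate 1 or 2 or homozygous replicate 1, 3 or 4 and reached 0.0940. The -5.32 was found without homozygous replicate 2.

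Lcn2 was the only one of these 3 members with a higher mean in homozygous libraries, 150 ± 94.1 CPM (SD, n = 4) against 65.1 ± 29.8 CPM (SD, n = 3), a log2 fold change of 1.2 with a standard error of 0.511 (edgeR unadjusted p = 0.0371, adjusted p = 0.996). With 1 library left out its fold change was 0.74 (without homozygous replicate 1) to 1.62, and its unadjusted p-value was above 0.05 without WT replicate 2 or 3 or homozygous replicate 1 or 2. Among the neutrophil markers, S100a9 had a log2 fold change of 0.93 (unadjusted p = 0.0301) in the same direction, 1 of 10 tested, and the other 9 were not under 0.05. Mmp8 of the same list was at 1.47 in homozygous against heterozygous libraries (edgeR unadjusted p = 0.0442). The summed level of the neutrophil list was 304 to 522 CPM in homozygous and 241 to 825 CPM in WT libraries. This list includes Ltf, and its sum was highest in WT replicates 1 and 2 and heterozygous replicate 4 (825, 758 and 925 CPM). Elane, a granule enzyme, had at most 3 counts in a library. The part of these cells in the Lcn2 values was not tested.

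Over the 16 tested members, 13 had a negative log2 fold change in homozygous against WT libraries, with a median of -0.58, while 47.2% of all tested genes were negative with a median of 0.015. Among the 13, the direction of Lcn11, Obp2a and Bpifb5 turned with the side of the leading component as a covariate. WT replicates 1 and 2 were the libraries in which many of the members were highest. Within the 6 libraries of 1 side of the leading component, mean Obp1a was 71.7 CPM in 2 WT, 38.0 in 2 heterozygous and 1.52 in 2 homozygous libraries. Within the other 5 it was 0.888 in 1 WT, 0.0340 in 2 heterozygous and 0.587 in 2 homozygous libraries. Mup5 was at 35.6, 19.5 and 3.82 CPM in the former and at 8.23, 0.230 and 0.0797 CPM in the latter, and thus was lower in homozygous than in WT libraries on both sides.

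For WT and homozygous libraries of the same number, the deviations from the group means went together, so that a fit with the replicate number as a block was also made. The labels do not say that equal numbers pair libraries. WT and homozygous libraries of the same number also lay on the same side of the leading component, which cannot be told apart from pairing here. Homozygous replicate 4 had no WT library of its number. On the 2 genotypes alone this block fit called 1 member, Mup5 (log2 fold change -3.70, edgeR adjusted p = 0.0233), and 6 members were under 0.05 before adjustment. Over all genes this fit called 39 of 16163 and put 1020 under 0.05 before adjustment. With the block over all 3 genotypes the count after adjustment was 0. With sex as a covariate, the log2 fold change was -7.77 for Obp1a (unadjusted p = 0.0403), -5.28 for Mup5 (0.0601) and 1.68 for Lcn2 (0.0128), and none passed after adjustment.

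**Figure D4:**
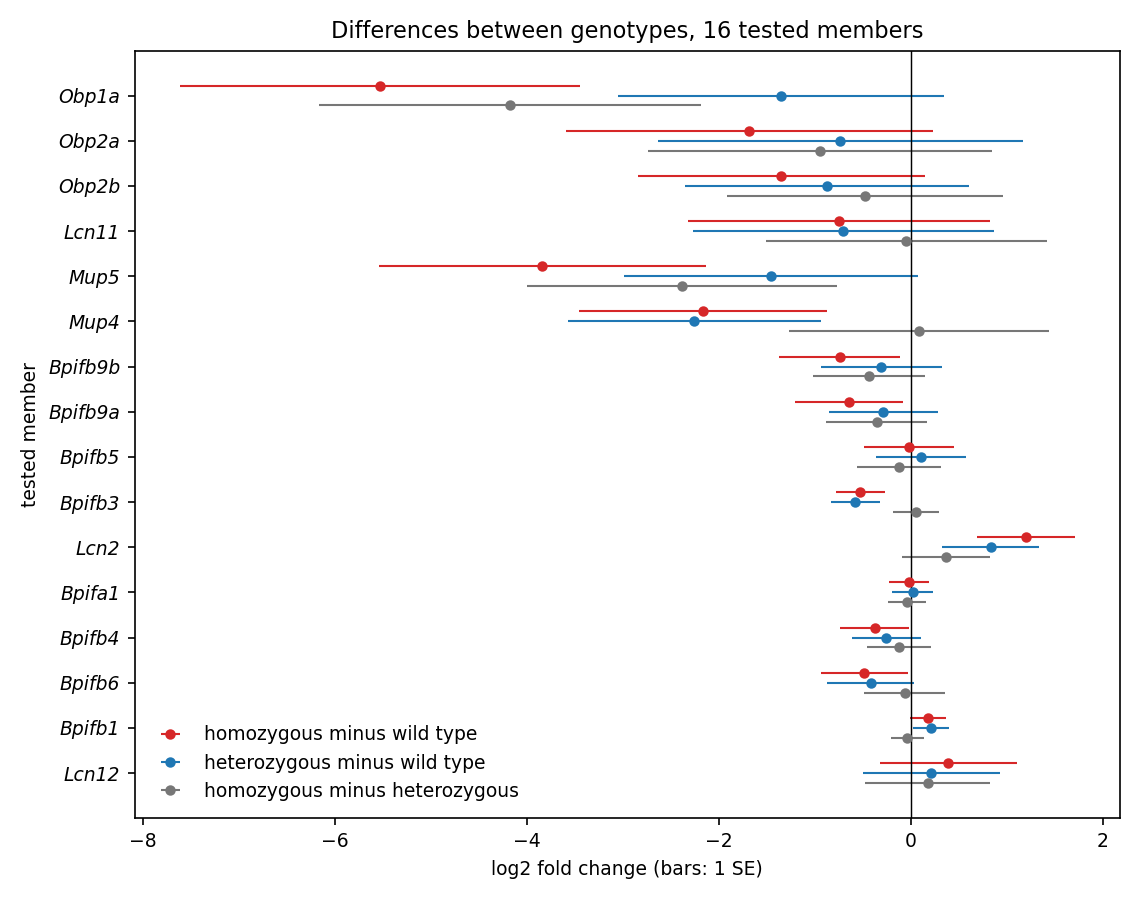
Log2 fold change of each tested member between genotypes, with 1 SE as the bar, in red for homozygous minus wild type, blue for heterozygous minus wild type and grey for homozygous minus heterozygous. The bars are wide for Obp and Mup genes and for Lcn11, and narrow for Bpifa1, whose fold change was -0.020 in homozygous against WT libraries.

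The loss of 1 copy of the cluster was compared with WT in the same way. After adjustment, 0 of 16 members and 0% of all tested genes passed, and before it 1 member did, against 2.24% of all tested genes. DESeq2 called 0 members and 3 of 21582 genes, and before adjustment 1 member and 491 genes were under 0.05. The member in edgeR was Bpifb3, a BPI-fold gene between Bpifb6 and Bpifb4, with 30.8 ± 1.01 CPM (SD, n = 4) in heterozygous and 46.1 ± 21.3 CPM (SD, n = 3) in WT libraries, a log2 fold change of -0.58 with a standard error of 0.256 (edgeR unadjusted p = 0.0429, adjusted p = 1.0). Bpifb3 was at 70.7, 34.6 and 32.9 CPM in WT replicates 1 to 3 and at 30.6, 29.7, 30.9 and 32.1 CPM in heterozygous replicates 1 to 4, and at 40.5, 24.1, 29.5 and 33.7 CPM in homozygous replicates 1 to 4. WT and heterozygous libraries did not overlap, which held for this 1 of 16 members and for 2.51% of all tested genes, but WT replicate 1 alone made most of the difference. Without it the log2 fold change was -0.13.

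Of the 16 tested members, 11 had a negative log2 fold change in heterozygous against WT libraries, with a median of -0.36, while 49.6% of all tested genes were negative with a median of 0.0018. Heterozygous replicate 4 was among the highest libraries for many of them. Without that library, 6 members were under 0.05 before adjustment, as were 535 of all 16510 genes then tested.

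Homozygous and heterozygous libraries were compared next. None of the members passed after adjustment (0 of 16, 0% of all tested genes), 0 of 16 passed before it, against 0.561% of all tested genes, and 0 of 16 did not overlap, against 0.597%. DESeq2 gave 0 members by either count, while over all 21582 genes it called 2 and had 120 under 0.05 before adjustment. The fold change of Obp1a was -4.18 on the log2 scale with a standard error of 1.99 (edgeR unadjusted p = 0.0575, adjusted p = 1.0), and it turned to 4.81 without heterozygous replicate 4. In a joint test of any difference among the 3 genotypes, 0 of 16 members and 0% of all tested genes passed after adjustment by edgeR. Before adjustment edgeR gave 0 of 16 members, against 1.45% of all tested genes, and its lowest p-value for a member was 0.0632 for Obp1a. DESeq2 called 0 members and 5 of 21582 genes in this test.

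Other secretory genes of the nasal glands, from a list that does not overlap the 4 families, included some with the same highest libraries. Of 31 tested genes of this list, 6 had WT replicates 1 and 2 and heterozygous replicate 4 as their highest libraries, against 3.78% of all tested genes. They are named here after their values were seen. Pigr, the receptor that carries immunoglobulin A into secretions, was at 153 to 226 CPM in these 3 libraries and at 9.04 to 64.6 CPM in the other 8. Ltf, the iron-binding lactoferrin of glands and neutrophils, was at 343 to 623 CPM against 94.9 to 308 CPM, and Dmbt1, a mucosal scavenger glycoprotein, at 34.8 to 45.1 CPM against 4.04 to 18.2 CPM. The remaining 3 were Fcgbp, Azgp1 and Pip.

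None of these gland genes passed the test between genotypes after adjustment. At an edgeR unadjusted p under 0.05 were Scgb3a1 (log2 fold change 0.63, unadjusted p = 0.0189) and the chitinase-like gene Chil6 (-1.66, unadjusted p = 0.00942) in homozygous against WT libraries. In heterozygous against WT libraries edgeR gave Scgb3a1 (0.68, unadjusted p = 0.0126) and the mucin gene Muc5b (0.65, unadjusted p = 0.0472), and in homozygous against heterozygous libraries Dcpp3 (1.91, unadjusted p = 0.0324) and Muc5ac (-1.0, unadjusted p = 0.0113). The list's median log2 fold change was -0.028, -0.074 and -0.15 in these comparisons.

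Genes related to the members by fold but outside the 4 families were read in the same way. Of 6 tested other lipocalin genes and 2 tested other BPI-fold genes, 0 had the 3 shared libraries, against 3.78% of all tested genes, and 0 passed after adjustment in any comparison. Before adjustment in edgeR, Rbp4, the plasma carrier of retinol, and Ptgds, the prostaglandin D2 synthase, were under 0.05 in heterozygous against WT libraries (0.50, unadjusted p = 0.0366 and 1.67, unadjusted p = 0.0417 on the log2 scale). Pltp, the phospholipid transfer protein, was so in homozygous against WT libraries (0.33, edgeR unadjusted p = 0.0312).

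The cell type lists that could move with the members gave mixed values. The summed level of the Bowman's gland list was 687 to 1181 CPM in WT, 803 to 1304 in heterozygous and 855 to 1293 in homozygous libraries, with 0 of 6 genes called and 0 with the 3 shared libraries. Most of this sum was Krt18 and Muc5b. Sox10, a transcription factor of these glands, was at 85.9, 73.4 and 31.6 CPM in WT replicates 1 to 3, at 42.1, 38.4, 39.9 and 92.8 CPM in heterozygous replicates 1 to 4 and at 64.4, 100.7, 39.8 and 47.3 CPM in homozygous replicates 1 to 4. WT replicates 1 and 2 and heterozygous replicate 4 were thus high for Sox10, below homozygous replicate 2. The first place of homozygous replicate 2 rests on its TMM factor of 0.756. Scaled by library total alone, it was below WT replicate 1 and heterozygous replicate 4. The list of salivary or lacrimal acinar genes summed to 42.5 to 124, 35.1 to 116 and 30.3 to 128 CPM, with Smgc at most at 14 counts in a library and Prol1 at 0. Its leading gene Bhlha15, a transcription factor of secretory cells, was at 109, 72.2 and 22.3 CPM in WT replicates 1 to 3, at 45.9, 19.3, 38.1 and 94.7 CPM in heterozygous replicates 1 to 4 and at 69.2, 113.9, 34.8 and 18.0 CPM in homozygous replicates 1 to 4. It was thus highest in homozygous replicate 2, WT replicate 1 and heterozygous replicate 4. Scaled by library total alone, Bhlha15 in homozygous replicate 2 was below WT replicate 1 and heterozygous replicate 4. Of the 3 tested genes of the list 1, Pip, had the 3 shared libraries. The 8 skeletal muscle genes, with Acta1, Ckm and Mylpf first, summed to 6.95 to 56.6 CPM in WT, 15.9 to 1624 in heterozygous and 20.4 to 760 in homozygous libraries. After adjustment 0 of these 8 genes passed. Before it, 5 had a higher level in homozygous than in WT libraries at an edgeR unadjusted p under 0.05 (Acta1, Ckm, Mylpf, Myh3 and Actn2), with Acta1 at a log2 fold change of 4.10. All 8 did so in heterozygous against WT libraries, where Myh8, Tnni2 and Tnnt3 joined them and Acta1 was at 4.58. Of all tested genes, 3.02% and 2.24% were under 0.05 in these comparisons, in either direction. The part of these tissues in the values of the secretory genes was not tested.

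The 6 sustentacular genes, with Cyp2g1, Cyp1a2 and Ermn first, summed to 1984 to 2837 CPM in WT, 2015 to 2831 in heterozygous and 1822 to 2588 in homozygous libraries. The 6 genes of ciliated cells, with Foxj1, Tekt1 and Dnah5 first, summed to 442 to 708, 424 to 799 and 403 to 793 CPM. The 4 horizontal basal cell genes, with Krt5, Krt14 and Trp63 first, summed to 70.3 to 214 CPM in WT, 91.5 to 256 in heterozygous and 86.4 to 201 in homozygous libraries. The highest of all 11 was heterozygous replicate 4, followed by WT replicate 1, and 1 of the 4 genes, Trp63, had the 3 shared libraries. The part of these cells in the values of the secretory genes was not tested. For the 6 genes of mature sensory neurons the sums were 1122 to 1950, 1153 to 1582 and 1049 to 1416 CPM. The 6 respiratory secretory genes summed to 144 to 200 CPM in WT, 180 to 278 in heterozygous and 192 to 221 in homozygous libraries, with 1 count of Scgb1a1 over all libraries. Heterozygous replicates 1 and 4 were the highest (278 and 244 CPM), and 0 of the 4 tested genes had the 3 shared libraries. Among 5 genes of vomeronasal neurons, the channel gene Trpc2 was listed at 0 and Vmn2r1 had at most 7 counts in a library, whereas Gnao1, a G protein gene also used by other neurons, was at 218 to 321 CPM. Vmn1r51 and Calr4 had counts in every library.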

How the data were processed

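The authors aligned reads (Trimmomatic 0.36, HISAT2 2.1.0) to mm10, counted them per gene with featureCounts (Subread 1.6.2) and deposited the raw counts. The annotation, strand setting and handling of reads with several positions are not given in the sources used here. The deposited normalised table was not used. The raw counts of 11 libraries (9239866 to 14632525 in total) were grouped by the labelled genotype and fitted with edgeR 4.0.16 in R 4.3.3 (TMM scaling, filterByExpr, quasi-likelihood F-tests, all 3 genotypes in 1 fit, Benjamini-Hochberg adjustment over 16574 genes, threshold 0.05). The script was tested on simulated data. DESeq2 1.42.0, other scalings, filters and covariates, the replicate block and leaving out libraries were tried as alternatives. The exact permutation test used scipy 1.17.1.

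Gene lengths and positions came from GENCODE M21, which matched 23350 symbols and all 47 members, and transcripts were compared with Biopython 1.88 using 50-base stretches. Promoters came from RefSeq (250 bases before to 50 after the start, GRCm38.p6). Wilson intervals and the floor of 3 counts cover counting error only. Sex was read from Xist and Y-linked counts, and this term and the fit without 4 libraries high in Acta1 were added after the data were seen. The labels number the replicates within each genotype. Same-numbered WT and homozygous libraries had correlated deviations from their group means over the tested genes (r = 0.326, 0.415 and 0.396 across genes), and pairs with heterozygous libraries had negative ones (-0.19 to -0.58).

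The members and lists were chosen with earlier results of these data known. Values are given for up to 5 members of each family with the highest level per kilobase and for members with an unadjusted p-value under 0.05. Of other lists, the genes under 0.05 and the 3 leading markers are named, apart from the Y-linked genes used to read sex. Genes named by another route are said to be so.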

Additional observations from a re-analysis of the deposited data

Results flagged for a closer look

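In 40 groups of 4 libraries, each a member or a family sum in the heterozygous or the homozygous libraries, the highest or lowest library was compared with its nearest neighbour by Dixon's ratio. Of these, 10 stood apart at the 95% critical value, where chance flags about 1 in 20 groups of normally distributed values. The ratio was taken on CPM and not on a log scale, so that this rate need not hold for genes of so wide a range. Groups of 3 (WT) were not tested. Of the 10, 9 are the same library, heterozygous replicate 4, which was far above the other 3 heterozygous libraries. Its values were 1023 CPM for Obp2a, 12.6 for Obp2b, 76.1 for Obp1a, 2848 for Lcn11, 2.14 for Mup4 and 39.0 for Mup5, and the family sums were 1112 CPM for Obp, 2935 for Lcn and 41.4 for Mup. These 9 values are not independent, since the genes moved together and each sum is led by 1 or 2 of them. The same library had the highest Acta1 level of the 11 (446 CPM), and its part in these values was not tested. The last was homozygous replicate 4, whose Bpif sum of 11449 CPM was the lowest of the 4 homozygous libraries.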

How the results depend on the processing

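The number of members called after adjustment was 0 in each comparison under TMM and RLE scaling, no filter, the library set or sex as covariate, DESeq2 and each left-out library. In the fit of only the 2 genotypes with the replicate block it was 1 (Mup5) for homozygous and 2 (Mup5 and Obp1a) for heterozygous against WT, although the numbers did not pair the heterozygous libraries. Over all genes these fits called 39 of 16163 and 8 of 16272.

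Members under 0.05 before adjustment numbered 3 for homozygous against WT, and 5 with the library set as covariate, 6 with only 2 genotypes and the block, and 1 by DESeq2. Over all genes the numbers were 500 of 16574, 1132 of 16574, 1020 of 16163 and 633 of 21582 in the same order. With 1 library left out it was 2 to 4 (2 without WT replicate 1 or 2 or any homozygous library, 4 without WT replicate 3). Over all genes these fits gave 352 without WT replicate 1, 508 without WT replicate 2, 714 without WT replicate 3 and 317 to 721 without a homozygous library. For heterozygous against WT the number was 1, and 3 with the replicate block, 2 with the library set, 2 with only the 2 genotypes, 7 with only these and the block, and 3 without the 4 libraries highest in Acta1. Over all genes these were 372 of 16574, and 239, 754, 278, 287 and 326 in the same order. It was 0 to 6 with 1 library left out: 6 without heterozygous replicate 4 (535 over all genes), 2 without WT replicate 3, and 0 without WT replicate 1, heterozygous replicates 1, 2 or 3 or homozygous replicate 3 (over all genes 614, 229, 285, 338, 414 and 338 in this order). For homozygous against heterozygous it was 0, and 1 with no filter, 1 without the Acta1-high libraries and 0 to 2 with 1 library left out (2 without heterozygous replicate 4). Over all genes these were 93, 206 with no filter, 39 without the Acta1-high libraries and 139 without heterozygous replicate 4.

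Directions turned as follows on the log2 scale, and the cause was not tested. In homozygous against WT, Lcn11 was at 0.16 with the replicate block, 0.57 with the library set and 0.45 with 2 genotypes and the block. Bpifb5 was at 0.025, 0.14 and 0.28 in the same order. Obp2a was at 0.44 with the library set, Lcn12 at -1.08 with sex, and Bpifa1 at 0.077 without the Acta1-high libraries. In homozygous against heterozygous, Mup5 was at 1.03 with the block and 4.32 without the Acta1-high libraries. Obp1a was at 0.91 with the block, 1.46 with 2 genotypes and the block, and 3.61 without the Acta1-high libraries. With 1 library left out, the ranges were -0.037 to 0.89 for Lcn12, -0.14 to 0.095 for Bpifa1 and -0.30 to 0.25 for Bpifb5 (homozygous against WT), and -0.096 to 0.66 for Lcn2, -0.081 to 0.16 for Bpifb3, -3.86 to 3.44 for Mup5 and -4.60 to 4.81 for Obp1a (homozygous against heterozygous). Low counts limit Mup4, Obp2b and Lcn12 most.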
